A study of Mus musculus with 2 samples.

Results

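The cells described here were red cells and reticulocytes of low complexity. They were recovered among dissociated dental tissue of mice given clodronate liposomes, which target phagocytes, or vehicle liposomes. They were chosen by 2 measured values, fewer than 200 detected genes and at least 50% of UMIs (unique molecular identifiers, each counting 1 captured transcript) from Hba-a1, Hba-a2, Hbb-bs and Hbb-bt, with no limit on mitochondrial UMIs. This rule found 1216 of the 19015 deposited cells, 468 of 9362 in Lipo-Clo and 748 of 9653 in Lipo-PBS. The 2 libraries came from C57BL/6J mice injected intraperitoneally with clodronate liposomes (Lipo-Clo, 40 μg per g) or with vehicle liposomes (Lipo-PBS) 4 times, on postnatal day 3.5 (PN3.5), then PN6.5, then PN9.5, and last on PN12.5. Mandibular molars with their surrounding tissue were taken at PN15.5, digested with Dispase and Collagenase I, and profiled as whole mixed suspensions on the 10x Genomics platform. The comparison asks how a loss of macrophages changes the cells of the root-forming tissue. Each treatment had 1 library, and the number of mice behind a library was not given in the sources used here, so no difference below has a replicate check and intervals cover counting error only.

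Red cells form from erythroblasts that fill with haemoglobin, a tetramer of alpha and beta globin chains around haem, and then expel the nucleus. The reticulocyte that remains cannot transcribe, and it loses mitochondria, ribosomes and most of its remaining transcripts through ubiquitin-dependent degradation and autophagy as it matures in the blood. Macrophages take part at both ends of this life, as nurse cells of erythroblast islands and as the cells that remove aged red cells, and clodronate delivered in liposomes kills phagocytes that engulf it.

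The genes that defined the cells were 2 alpha globin genes, Hba-a1 and Hba-a2, and 2 adult beta globin genes, Hbb-bs and Hbb-bt. The 120 bases before each start are printed because these 4 genes supplied nearly all transcripts of the cells, and Alas2, the erythroid enzyme that begins haem synthesis, is printed beside them as the gene that most set the cells apart from all others. Sequences are from the RefSeq promoter table (build GRCm38.p6), read 5′ to 3′ on the gene's strand, and capitals mark 5 short motifs found on either strand, the GATA-type motif AGATAA, the CACCC box, the CCAAT box, and the TATA-type motifs ATAAA and ATATAA. Overlapping or adjacent matches run together, as for ATATAA with ATAAA in Hbb-bt.
Hba-a1 (chr11:32283552-32283671, plus strand): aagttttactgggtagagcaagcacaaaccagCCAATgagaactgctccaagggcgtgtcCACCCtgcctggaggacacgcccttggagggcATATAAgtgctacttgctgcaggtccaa
Hba-a2 (chr11:32296372-32296491, plus strand): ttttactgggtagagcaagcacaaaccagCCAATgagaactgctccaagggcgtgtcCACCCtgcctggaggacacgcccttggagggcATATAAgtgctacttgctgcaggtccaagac
Hbb-bs (chr7:103827929-103828048, minus strand): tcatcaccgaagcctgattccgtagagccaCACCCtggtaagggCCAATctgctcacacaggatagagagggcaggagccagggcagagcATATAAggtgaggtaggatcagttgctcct
Hbb-bt (chr7:103813924-103814043, minus strand): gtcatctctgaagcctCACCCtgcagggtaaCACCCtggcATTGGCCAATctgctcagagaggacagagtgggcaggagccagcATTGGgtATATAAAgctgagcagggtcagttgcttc
Alas2 (chrX:150547297-150547416, plus strand): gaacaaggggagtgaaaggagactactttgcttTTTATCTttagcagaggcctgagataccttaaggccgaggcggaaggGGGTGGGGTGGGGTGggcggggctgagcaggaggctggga

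All 4 globin windows held the CACCC box, the CCAAT box and the ATATAA motif, which 31.7%, 21.3% and 4.47% of the 32851 promoter windows of this length hold. The AGATAA match, held by 4.36% of windows, was in the Alas2 window alone among these 5. The Hba-a1 and Hba-a2 windows shared an unbroken run of 117 bases, against 14 for Hbb-bs and Hbb-bt. The transcripts of each pair also overlap in sequence. In the GENCODE models, 58.9% of the 90-base windows of Hba-a1 occurred in Hba-a2 and 63.3% of those of Hbb-bs occurred in Hbb-bt, so how the authors' counting divided reads within a pair is uncertain, and the sum of each pair is the firmer value.

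The 2 libraries also differed in cells other than the low-complexity red cells. Over all these other cells, the 13 mitochondrial genes together were 4.82-fold lower in Lipo-Clo than in Lipo-PBS relative to non-globin UMIs. A list of 17 neutrophil genes was 4.56-fold higher over the same cells, which include neutrophils themselves. That list was 1.29-fold higher in cells with at least 50% globin and at least 200 genes. It was 3.20-fold higher in the collagen-rich cells defined below. The Lipo-Clo library had 31053404 UMIs, 9.09% of them globin, against 30537834 UMIs and 13.3% for Lipo-PBS. In collagen-rich cells (at least 200 genes, under 50% globin and at least 1% of UMIs from Col1a1, Col1a2 and Col3a1), which do not make globin, globin supplied 2.10% of UMIs in Lipo-Clo against 4.62% in Lipo-PBS. The median collagen-rich cell had 0.17% and 0.29% globin. Cells with at least 2% globin were 252 of 4562 (5.52%) in Lipo-Clo against 1210 of 5583 (21.7%) in Lipo-PBS, and the cells under that limit had 0.17% and 0.28% globin as a sum. The part of these differences in the results below was not tested. The libraries shared 30 cell barcodes, and no barcode marked a low-complexity red cell in both.

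Low-complexity red cells were a smaller part of the Lipo-Clo library. They were 5.00% of its cells (95% interval 4.57 to 5.46, exact Clopper-Pearson) and 7.75% of Lipo-PBS cells (7.22 to 8.30), a log2 ratio of -0.63 (-0.80 to -0.46), or 1.55-fold more in Lipo-PBS. The other globin-rich cells, those with at least 200 genes, were 3.87% and 3.65% of cells, a log2 ratio of 0.08 whose interval (-0.13 to 0.30) spanned 0. Among all cells with at least 50% globin, 56.4% of 830 in Lipo-Clo and 68.0% of 1100 in Lipo-PBS had fewer than 200 genes. A share of deposited cells also depends on how many other cells were recovered, which was not tested. The low-complexity red cells held 42.9% of all globin UMIs in Lipo-Clo, against 46.5% in Lipo-PBS.

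**Figure D1:**
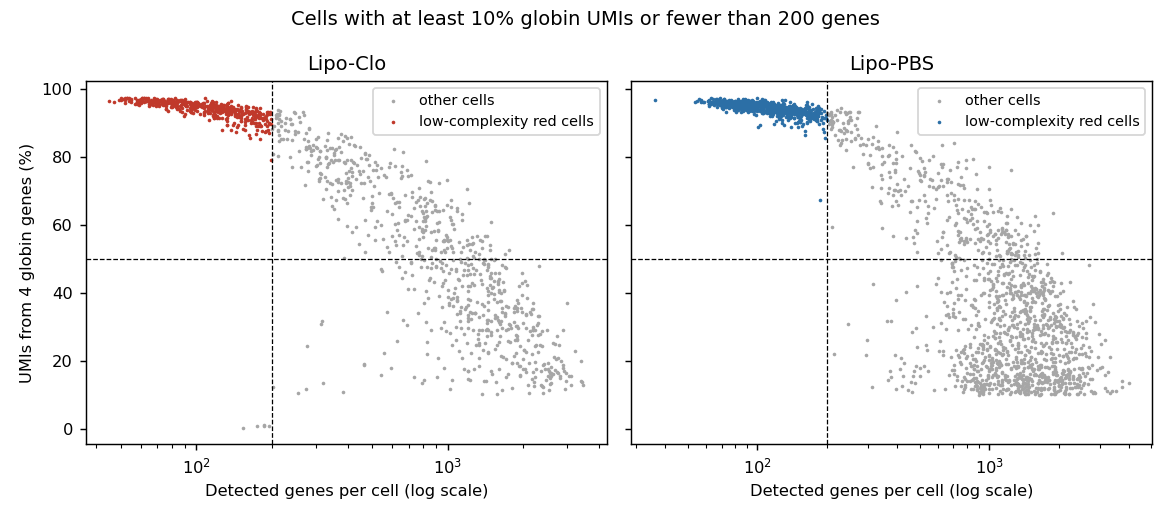
Detected genes per cell (x axis, log scale) against the percentage of UMIs from the 4 globin genes (y axis), for cells with at least 10% globin or fewer than 200 genes. Coloured points are the 468 Lipo-Clo and 748 Lipo-PBS low-complexity red cells, dashed lines mark 200 genes and 50% globin, and grey points run from the coloured band down towards cells with less globin and more genes.

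The gene limit cut through a falling slope and not through a gap. Within the 10 gene numbers below it were 17 Lipo-Clo and 11 Lipo-PBS cells with a median globin share of 91.3% and 91.5%. Within the 10 from the limit upwards were 5 and 13 cells with medians of 89.4% and 92.5%. The globin limit had little effect by comparison, since the lowest globin shares among the chosen cells were 79.3% and 67.3%, and 437 of the 468 and 732 of the 748 cells had at least 90%. Apart from the globin-rich cells, 5 cells of Lipo-Clo and 0 of Lipo-PBS had fewer than 200 genes.

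**Figure D2:**
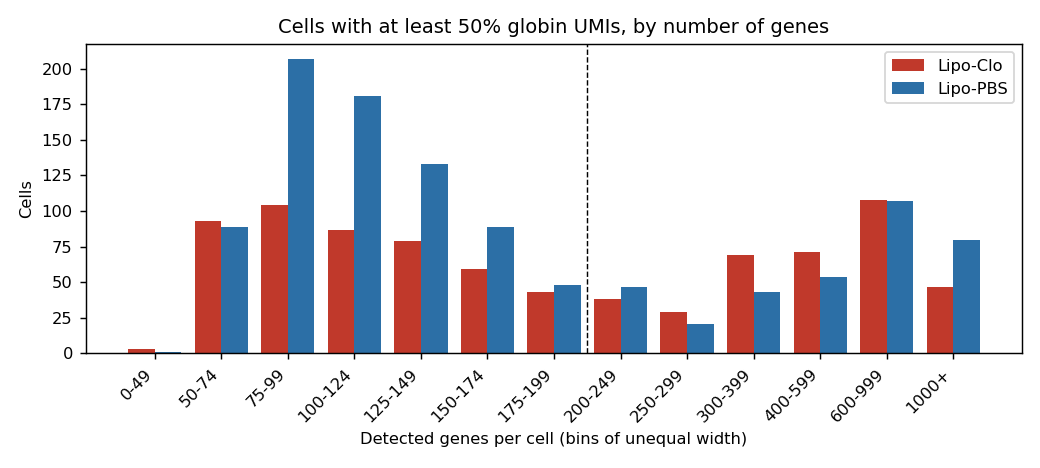
Number of cells with at least 50% globin UMIs (y axis) in bins of detected genes of unequal width (x axis) in each library, with the dashed line at 200 genes. From 75 to under 100 genes Lipo-PBS had 207 cells and Lipo-Clo 104, while from 600 to under 1000 genes they had 107 and 108.

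Per cell, the red cells of the 2 libraries had similar medians. The median was 2649.5 UMIs and 112.5 genes in Lipo-Clo, against 2577.5 UMIs and 110 genes in Lipo-PBS. Globin took a median of 94.8% of UMIs in both, which left a median of 143 non-globin UMIs in a Lipo-Clo cell and 136 in a Lipo-PBS cell. With every cell thinned to 500 UMIs the medians were 27 and 28 genes. Globin-rich cells with at least 200 genes then had medians of 119 and 139.5, a difference that the choice of cells by gene number fixes. Together the cells gave 73871 non-globin UMIs in Lipo-Clo against 112061 in Lipo-PBS, and these are the base of the levels below, given as UMIs per 10000 non-globin UMIs summed over cells. A UMI counts a captured 3′ end once whatever the transcript's length, so levels of different genes are compared without a length correction.

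Beta globin transcripts outnumbered alpha globin transcripts 2.83-fold in Lipo-Clo and 2.95-fold in Lipo-PBS. Hbb-bs supplied 64.3% of globin UMIs in Lipo-Clo against 65.0% in Lipo-PBS, and Hbb-bt 9.63% and 9.61%. Hba-a1 supplied 15.04% and 14.47%, and Hba-a2 11.1% and 10.9%. The order of the 4 genes was the same in the 2 libraries. The alpha share of 26.1% in Lipo-Clo exceeded the 25.3% of Lipo-PBS by 0.77 percentage points (0.63 to 0.91 by counting error). Between single cells this share had an SD of 3.35 and 2.92 percentage points. Hbb-bs exceeded Hbb-bt 6.67-fold and 6.77-fold, and Hba-a1 exceeded Hba-a2 1.36-fold and 1.33-fold. In the globin-rich cells with at least 200 genes these ratios were 5.48 and 5.89 for the beta pair, and 1.54 and 1.40 for the alpha pair.

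The remaining globin chains were nearly silent. Hbq1b, a theta globin gene of the alpha cluster, had 53 UMIs in Lipo-Clo against 57 in Lipo-PBS, and its copy Hbq1a 14 and 35. The embryonic and fetal-type genes Hbb-y, Hbb-bh1 and Hbb-bh2 had no UMI in either library, and the embryonic Hba-x had 1. A count of 0 at this depth allows a level of up to 0.41 for Lipo-Clo and 0.27 for Lipo-PBS (3 UMIs of the non-globin total).

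Beside globin, the cells carried a red cell programme together with transcripts of genes listed for other cell types. The 5 lists of red cell genes, 91 genes in all, made up 26.2% of non-globin UMIs in Lipo-Clo against 23.0% in Lipo-PBS. In globin-rich cells with at least 200 genes they made up 13.3% and 8.02%, and in collagen-rich cells 1.78% and 1.63%. The 7 lists of other cell types made up 3.17% and 3.02% of non-globin UMIs in the red cells. Only 8 Lipo-Clo and 9 Lipo-PBS red cells had no UMI from the 68 genes of the mesenchyme, epithelium, neutrophil, macrophage and lymphocyte lists, so nearly every red cell barcode carried at least 1 such UMI. Col1a1, the main collagen of bone and dentine, had a UMI in 63.0% and 71.3% of the red cells.

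The 15 most counted genes outside globin, mitochondrial and ribosomal protein genes held 21.8% of non-globin UMIs. Ubb, a polyubiquitin gene, led them with a level of 360 in Lipo-Clo against 274 in Lipo-PBS. After it came Gpx1, Oaz1, Mkrn1, Ftl1, Alas2, Fth1, Prdx2, Eif1, Bpgm, Gabarapl2, Sec61g and Bnip3l, which with Ubb are the 13 of these genes described here. They include genes of protein and organelle clearance (Ubb, Mkrn1, Gabarapl2, Bnip3l), iron and haem (Ftl1, Fth1, Alas2), defence against peroxide (Gpx1, Prdx2) and control of oxygen release (Bpgm).

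**Figure D3:**
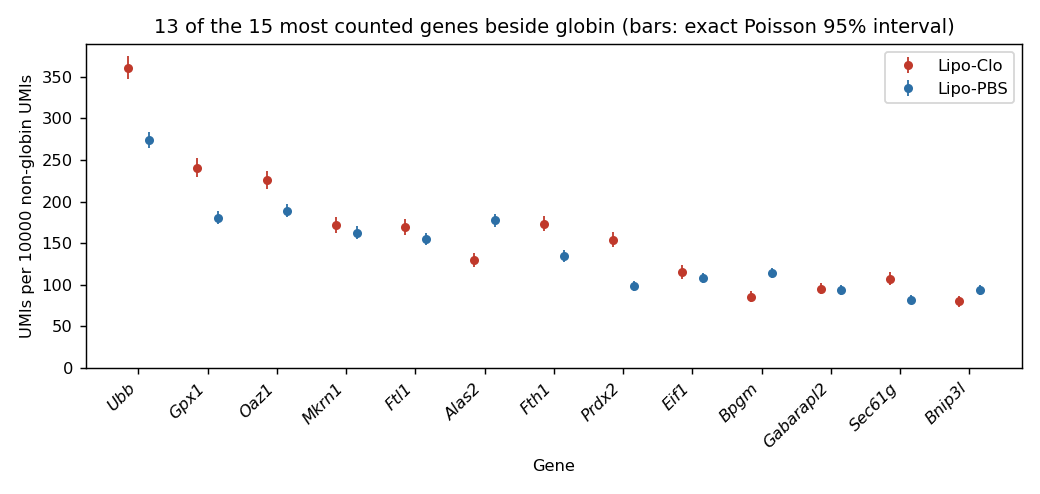
Level of 13 of the 15 most counted genes (x axis) as UMIs per 10000 non-globin UMIs (y axis) summed over the red cells of each library, with exact Poisson 95% intervals as bars. Ubb stood at 360 and 274, and Alas2, Bpgm and Bnip3l were lower in Lipo-Clo while Prdx2 and Gpx1 were higher.

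Ranked by level against all other cells of both libraries, leading genes were Alas2 (240-fold), Ube2l6 (178-fold), Fam220a (168-fold), Tent5c (141-fold), Rsad2 (138-fold), Bpgm (131-fold), Mkrn1 (126-fold), Isg20 (124.95-fold) and Apol11b (120-fold). These folds follow from choosing the cells by globin and are given as a description. Alas2 had a UMI in 78.0% of Lipo-Clo and 89.8% of Lipo-PBS red cells, against 3.88% and 8.71% of collagen-rich cells, whose median depths of 3218.5 and 3144 UMIs were greater. Thinned to 500 UMIs a cell, Alas2 was still seen in 33.1% and 38.1% of the red cells, against 0.72% and 1.54% of collagen-rich cells. The level of Alas2 in collagen-rich cells, 0.19 and 0.43, was lower still in those with under 2% globin, at 0.024 and 0.042.

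Of the 1024 genes with at least 20 UMIs, 500 were higher and 524 lower in Lipo-Clo, with a median log2 ratio of -0.03, a balance that scaling to non-globin UMIs largely sets. At least 2-fold higher were 61 genes (5.96% of those compared) and at least 2-fold lower were 89 (8.69%), and the counting interval of the ratio was clear of 0 for 96 genes above and 92 below. These percentages are the background for the lists that follow.

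The clearance genes were the most abundant red cell group and differed little. Their summed level was 892 in Lipo-Clo against 809 for Lipo-PBS (log2 ratio 0.14, 0.09 to 0.19), and 1 of the 16 genes compared was at least 2-fold higher and none at least 2-fold lower, with a median of -0.01. The gene past 2-fold was Fbxo7, an F-box protein, on 15 and 11 UMIs, with an interval that spanned 0 (-0.17 to 2.32). Ubb was 1.31-fold higher in Lipo-Clo (log2 ratio 0.39, 0.32 to 0.47). Mkrn1, a ubiquitin ligase, stood at 172 and 163, and its interval spanned 0 (-0.03 to 0.18). Gabarapl2, an autophagosome protein, stood at 95.3 and 93.8 and also had an interval that spanned 0 (-0.12 to 0.16). Bnip3l, the receptor that marks mitochondria of reticulocytes for removal, stood at 80.3 and 93.5 and was lower in Lipo-Clo (-0.22, -0.37 to -0.07). Ube2l6, the conjugating enzyme for the ubiquitin-like protein Isg15, stood at 83.9 and 87.0, with an interval of -0.20 to 0.09.

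Genes of haem synthesis and iron handling differed in both directions, with 8 of the 11 compared higher in Lipo-Clo and 3 lower. The summed level was 622 and 589 (log2 ratio 0.08, 0.02 to 0.13), and 2 of 11 genes were at least 2-fold higher and none at least 2-fold lower, with a median of 0.37. Alas2, which starts haem synthesis in the mitochondrion, had 959 UMIs in Lipo-Clo against 1989 in Lipo-PBS. Its level was 130 and 177, lower in Lipo-Clo by a log2 ratio of -0.45 (-0.56 to -0.34). Slc25a37, the mitochondrial iron importer, was also lower, at 21.7 and 33.7 (-0.64, -0.91 to -0.37). Fech, which inserts iron to form haem in the closing step, was likewise lower, at 16.7 and 23.6 (-0.50, -0.82 to -0.19). These 3 were the lower genes of the list. Urod, a cytosolic enzyme of the pathway, stood at 4.47 and 2.05 (1.12, 0.31 to 1.96). Blvrb, a biliverdin reductase, stood at 59.6 and 32.8 (0.86, 0.66 to 1.06). Glrx5, a mitochondrial glutaredoxin of iron-sulphur cluster assembly, stood at 34.8 and 24.5 (0.51). The ferritin chains Fth1 (173 and 135) and Ftl1 (170 and 155) were higher in Lipo-Clo by 0.37 and 0.13. Tfrc, the transferrin receptor that reticulocytes lose as they mature, had 6 UMIs in each library, a level of 0.81 in Lipo-Clo and 0.54 in Lipo-PBS, against 0.13 and 0.10 in collagen-rich cells. Counts this low leave its level in red cells between 0.30 and 1.77, and between 0.20 and 1.17.

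Genes of the red cell membrane and skeleton were higher in Lipo-Clo as a sum. The summed level was 226 in Lipo-Clo against 179 in Lipo-PBS (log2 ratio 0.34, 0.24 to 0.43), and 1 of the 10 genes compared was at least 2-fold higher and none at least 2-fold lower, with a median of 0.32. Epb41, protein 4.1 of the spectrin skeleton, was lower, at 28.7 and 39.3 (-0.45, -0.70 to -0.21). The gene past 2-fold was Epb42, protein 4.2, on 15 and 10 UMIs, with an interval that spanned 0 (-0.06 to 2.50). Slc4a1, the band 3 anion exchanger, was low in both at 6.09 and 6.25. Cd24a, a surface protein of immature red cells, stood at 41.7 and 35.6 (0.23, 0.01 to 0.45).

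Genes for redox defence, glycolysis and gas exchange were higher in Lipo-Clo as a sum, at 530 against 429 (log2 ratio 0.30, 0.24 to 0.37), but none of the 9 genes compared differed 2-fold, and the median was 0.25. Prdx2, the abundant peroxiredoxin of red cells, stood at 154 and 98.7 (0.64, 0.52 to 0.76). Gpx1, a glutathione peroxidase, stood at 241 and 180 (0.42, 0.32 to 0.51). Car2, a carbonic anhydrase, stood at 29.5 and 19.0 (0.63, 0.36 to 0.91). Bpgm, which makes the 2,3-bisphosphoglycerate that lowers the oxygen affinity of haemoglobin, was the exception among the abundant genes, at 86.0 and 114 (-0.41, -0.55 to -0.27).

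Ahsp, the chaperone that holds free alpha globin, differed most among the abundant red cell genes. It had 654 UMIs in the 468 cells of Lipo-Clo and 313 UMIs in the 748 cells of Lipo-PBS, a level of 88.5 against 27.9 and a log2 ratio of 1.66 (1.47 to 1.86). A UMI was seen in 29.5% and 15.4% of red cells, against 5.98% and 7.67% of collagen-rich cells, and at 500 UMIs a cell in 12.2% and 4.41% against 2.48% and 2.60%. The same direction held in globin-rich cells with at least 200 genes, where its level was 214 and 90.5 (1.24). In collagen-rich cells its level was 1.88 and 1.23 (0.61, 0.53 to 0.69), and 0.20 and 0.099 in those under 2% globin. Tent5c, a poly(A) polymerase, stood at 36.8 and 49.6 (-0.43, -0.64 to -0.22).

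Transcription factors of the erythroid lineage were at the edge of detection. Of 15 factors and receptors, only Lmo2 reached 20 UMIs, with 34 in Lipo-Clo against 40 in Lipo-PBS. Klf1, the activator of beta globin, had 3 and 1, and Gata1, Zfpm1, Epor, Gfi1b and Myb had none in either library. In globin-rich cells with at least 200 genes the same list stood at 21.3 and 11.1, against 6.77 and 5.80 in the low-complexity red cells. Of the label's genes outside the rule, Alas2, Bpgm and Mkrn1 were among the most counted transcripts, and 5 of these 15 factors were at 0. Other genes of the label went the other way. Slc4a1 had a UMI in 7.91% of Lipo-Clo and 7.09% of Lipo-PBS red cells, and Tfrc had 6 UMIs in each library. Malat1, a nuclear RNA, had a UMI in 48.7% and 61.9%. The limits on globin and on gene number favour abundant red cell transcripts and absent factors. These values are therefore a description of the cells and no independent check.

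Isg15, an interferon-stimulated ubiquitin-like protein, was examined after its values were seen. It had 667 UMIs in Lipo-Clo against 388 in Lipo-PBS, a level of 90.3 against 34.6 (log2 ratio 1.38, 1.20 to 1.57). It had a UMI in 30.1% and 16.8% of red cells, and in 6.86% and 8.99% of collagen-rich cells. Its level was also higher in Lipo-Clo in globin-rich cells with at least 200 genes (1.34), while in collagen-rich cells the interval of 0.12 spanned 0. Of 18 interferon-stimulated genes listed with it, 4 had at least 20 UMIs. Ifi27 stood at 7.31 and 2.77 (1.40, 0.74 to 2.09), whereas the intervals of Rsad2 (0.20) and Ifitm3 (0.03) spanned 0. The summed list had a log2 ratio of 0.99 (0.85 to 1.13), and 0.37 (0.15 to 0.60) with Isg15 left out.

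Mitochondrial transcripts were lower in Lipo-Clo. The 13 genes summed to a level of 106, against 314 in Lipo-PBS, with a log2 ratio of -1.56 (-1.68 to -1.45), and 11 of the 12 compared were at least 2-fold lower, with a median of -1.44. No mitochondrial UMI was found in 258 of 468 Lipo-Clo red cells and in 122 of 748 Lipo-PBS red cells. The same list was lower in Lipo-Clo in globin-rich cells with at least 200 genes (-1.96) and in collagen-rich cells (-2.36), so the difference was wider in these other cells than in the red cells. The highest red cell of Lipo-PBS held 532 of that library's 3520 mitochondrial UMIs, and with the highest cell of each library left out the ratio was -1.44 (-1.56 to -1.32). mt-Co1, a subunit of cytochrome c oxidase, had a UMI in 17.1% of Lipo-Clo and 52.4% of Lipo-PBS red cells.

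Ribosomal protein transcripts differed little. Their 82 genes summed to 834 in Lipo-Clo against 843 in Lipo-PBS (log2 ratio -0.01, -0.06 to 0.03), with none of 77 differing 2-fold and a median of -0.05. Malat1, a nuclear RNA that enucleated cells should lack, stood at 58.8 and 69.5 and had a UMI in 48.7% and 61.9% of red cells. In collagen-rich cells its level was 108 and 206, and in globin-rich cells with at least 200 genes 198.96 and 272.4.

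**Figure D4:**
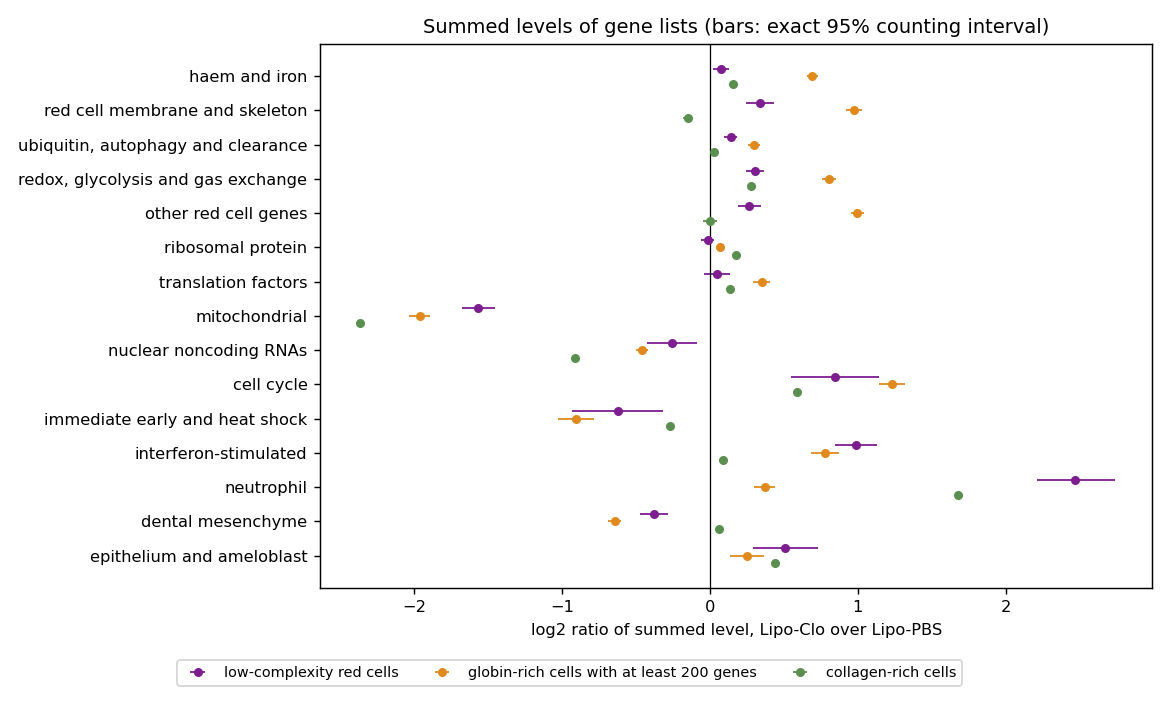
Log2 ratio of the summed level of each gene list between Lipo-Clo and Lipo-PBS (x axis, positive where higher in Lipo-Clo) in 3 sets of cells, with exact 95% counting intervals as bars. Mitochondrial genes lay at -1.56 in the red cells, -1.96 in globin-rich cells with at least 200 genes and -2.36 in collagen-rich cells, and the 5 red cell lists lay nearer 0 in the low-complexity cells than in the other globin-rich cells.

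Genes of other cell types were seen at low levels in the red cells of both libraries. The neutrophil list stood at 76.6 in Lipo-Clo against 13.8 in Lipo-PBS (log2 ratio 2.47, 2.21 to 2.74), with 5 of 5 genes compared at least 2-fold higher, a median of 1.91, and S100a9 the most abundant with 282 and 59 UMIs. In collagen-rich cells the list was higher by 1.68, and in globin-rich cells with at least 200 genes by 0.37 (0.30 to 0.44). S100a9 had a UMI in 38.5% and 7.35% of red cells and in 51.8% and 18.2% of collagen-rich cells, which have more non-globin UMIs, and 60 of its 282 UMIs in Lipo-Clo were in 1 cell. The dental mesenchyme list stood at 186 and 241 (-0.38, -0.47 to -0.28), with 4 of 16 genes at least 2-fold lower and a median of -0.46, led by Col1a1 at 66.5 and 84.3. The epithelial list summed to 45.1 and 31.7 (0.51, 0.29 to 0.73) and went both ways, with 4 of 7 genes higher and 3 lower in Lipo-Clo. Odam, an ameloblast protein, supplied most of that sum at 32.2 and 18.38. Past 2-fold were the ameloblast genes Amtn and Klk4 above, with intervals that spanned 0, and the keratins Krt5 (-1.29) and Krt13 (-2.57) below. Macrophage genes had 26 UMIs in Lipo-Clo against 59 in Lipo-PBS (-0.58, -1.31 to 0.11). Lymphocyte genes had 26 and 55 (-0.48, -1.21 to 0.22), and endothelial genes 12 and 26 (-0.51, -1.64 to 0.52). Platelet genes, with 4 and 27 UMIs, were lower in Lipo-Clo as a sum (-2.15, -4.13 to -0.63). The part of RNA from other cells in the differences between the red cells was not tested.

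The transcripts kept beside globin differed with the number of genes per cell. Cells with 50 to under 100, 100 to under 150 and 150 to under 200 genes numbered 197, 166 and 102 in Lipo-Clo and 296, 314 and 137 in Lipo-PBS. Alas2 was highest in the cells with the fewest genes, at 188, 123 and 100 in Lipo-Clo and 233, 178 and 133 in Lipo-PBS. Ahsp ran the other way and most steeply, at 5.83, 39.8 and 190 in Lipo-Clo and 4.43, 14.0 and 67.2 in Lipo-PBS. Gpx1 went from 68.2 to 336 and from 43.9 to 265 between the lowest and highest of these bins, and Prdx2 from 52.5 to 225 and from 24.7 to 157. The dental mesenchyme list was lower in cells with more genes, going from 263 to 141 in Lipo-Clo and from 325 to 186 in Lipo-PBS, and ribosomal protein genes from 1122 to 654 and from 1022 to 691. Since cells were binned by the number of genes in the same counts, these orders are a description.

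**Figure D5:**
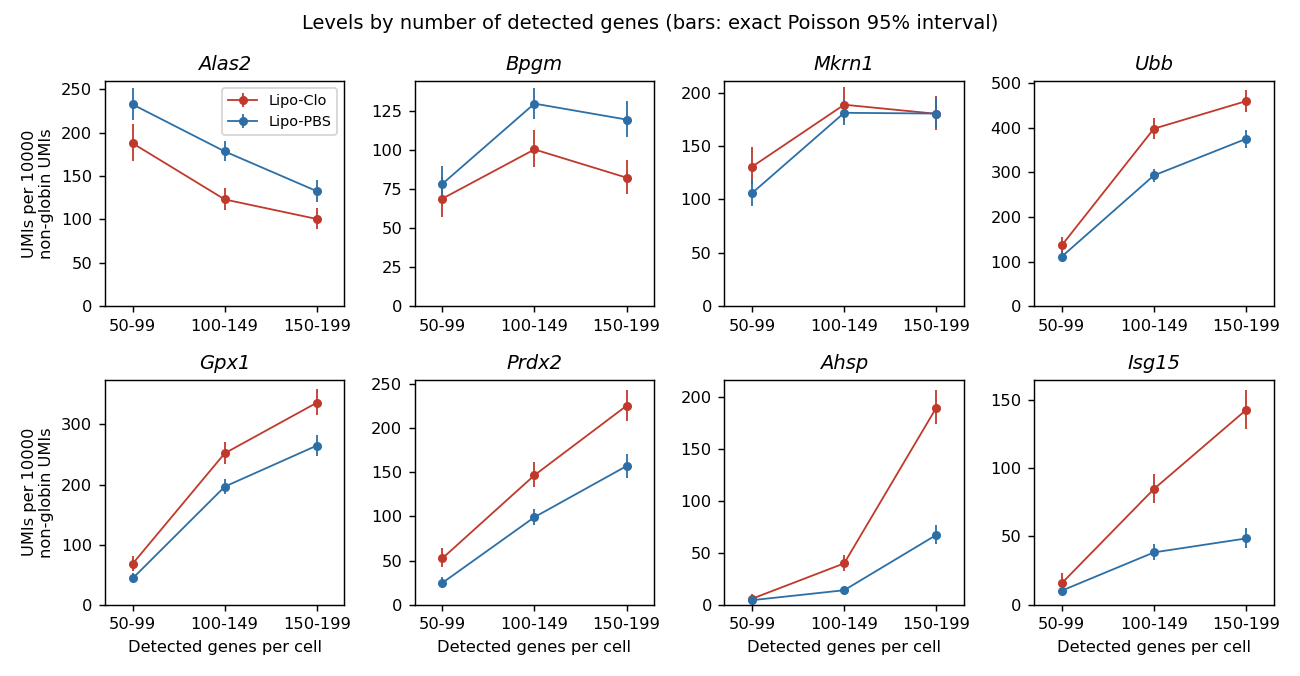
Level of 8 genes as UMIs per 10000 non-globin UMIs (y axis) in red cells in 3 bins of detected genes from 50 to under 200 (x axis), with exact Poisson 95% intervals as bars. In both libraries Alas2 was lower and Ahsp, Prdx2, Gpx1 and Isg15 were higher in cells with more genes, with Lipo-PBS above Lipo-Clo for Alas2 and below it for Ahsp in all 3 bins.

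Within these bins, Alas2, Ahsp, Prdx2, Isg15 and the mitochondrial and neutrophil lists kept their direction between libraries, and Fech did not. Alas2 was lower in Lipo-Clo in each bin, by log2 ratios of -0.31, -0.54 and -0.40, with intervals clear of 0. Ahsp was higher by 1.51 and 1.497 in the upper bins, and by 0.40 with an interval that spanned 0 in the lowest. Prdx2 was higher by 1.09, 0.56 and 0.52, and Isg15 by 0.61 (spanning 0), 1.14 and 1.55. Slc25a37 was lower by -0.41, -0.85 and -0.41, of which the -0.85 alone had an interval clear of 0. Fech was lower in the middle bin alone (-1.34), with -0.02 and 0.06 in the others. The mitochondrial list was lower by -1.23, -1.33 and -2.05, and the neutrophil list higher by 2.44, 2.39 and 2.59. A single Lipo-PBS cell with 532 mitochondrial UMIs was in the uppermost bin, and with the highest cell of each library left out the mitochondrial ratios were -1.23, -1.58 and -1.34.

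Among genes with at least 50 UMIs, genes furthest above in Lipo-Clo included the neutrophil alarmins S100a9 (log2 ratio 2.86) and S100a8 (2.65), Apol11b (2.38) and Supt4a, a transcription elongation factor (2.01). Apol11b, an apolipoprotein L gene, had 89 UMIs in Lipo-Clo against 26 in Lipo-PBS, a level of 12.05 against 2.32, and was also higher in Lipo-Clo in globin-rich cells with at least 200 genes (2.16). The 5 furthest below were Lgals7, a galectin of stratified epithelium (-2.57), the mitochondrial mt-Co1 (-2.06), mt-Nd4l (-1.97) and mt-Atp6 (-1.90), and Aspn, a proteoglycan of periodontal ligament (-1.69). Lgals7 rested on 5 and 45 UMIs and Aspn on 9 and 44.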

How the data were processed

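Both droplet libraries were analysed. Per the labels and file headers, the deposited values are raw counts of UMIs by gene for each barcode, made by the authors with Cell Ranger on GRCm39. The submitters' notes name Cell Ranger 3.1.0 and Seurat 3.1.1, whereas the file headers name Cell Ranger 8.0.0, and filters before deposit were not given in the sources used here (fewest UMIs in a cell 500 and 501). No cell was removed and no doublet was called here. The members and gene lists were chosen with earlier results of these data known. Counts were summed over cells and divided by non-globin UMIs (per 10000). Genes with at least 20 UMIs over both libraries were compared by the log2 ratio, with exact conditional binomial 95% intervals, and Poisson or Clopper-Pearson intervals for single values (Python 3.11.15, scipy 1.17.1). Cells were thinned to 500 UMIs with a fixed seed. With 1 library per group there is no test and no p-value. Text names the 4 globins, the 15 most counted genes, the 10 with the highest ratio to other cells (at least 100 UMIs), the 5 in each direction with the largest ratio (at least 50 UMIs, interval clear of 0) and the most abundant list genes. Scripts were tested on simulated data. Isg15, the interferon list, the genes shown by gene number, the background of under 2% globin and leaving out the cell with most mitochondrial UMIs were chosen after seeing the data. Some genes that this rule names are not reported here.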

Additional observations from a re-analysis of the deposited data

Results flagged for a closer look

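For 5 of 131 genes examined, the red cells with fewer than 200 genes and the globin-rich cells with at least 200 genes differed between libraries in opposite directions, each with a counting interval clear of 0. The difference between the 2 sets of cells was itself not tested. Levels in each set were relative to its own non-globin UMIs. The 5 red cell lists made up 13.3% of these UMIs in Lipo-Clo and 8.02% in Lipo-PBS in the cells with more genes. In the low-complexity red cells the lists made up 26.2% and 23.0%. The part of this make-up in the opposite directions was not tested. Alas2 was lower in Lipo-Clo in the low-complexity red cells (log2 ratio -0.45) and higher in the cells with more genes (0.17, 0.03 to 0.30). Slc25a37 had -0.64 against 0.41 (0.22 to 0.61), and Fech -0.50 against 0.58 (0.35 to 0.82). Epb41 of the membrane skeleton had -0.45 against 0.22, whose lower bound was 0.0016. Lgals7, an epithelial gene, had -2.57 (-4.26 to -1.24) against 1.15 (0.64 to 1.68).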

How the results depend on the processing

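No paired analysis was possible because each treatment had 1 library. The lower share of low-complexity red cells in Lipo-Clo kept its direction under all 7 alternatives. It was -0.46 when cells were taken by fewer than 100 genes after thinning to 500 UMIs and -0.27 as a share of all cells with at least 50% globin. The alpha share of globin stayed within its interval under all 5 alternatives. The log2 ratio of the 5 red cell lists together, 0.19, was 0.15 with fewer than 150 genes, 0.22 with fewer than 300, 0.15 with at least 90% globin, 0.15 as a mean over cells, 0.22 scaled to all UMIs and 0.15 scaled to UMIs outside globin, mitochondrial and ribosomal protein genes. The mitochondrial ratio was -1.30 with fewer than 150 genes, -1.34 with at least 70% globin, -1.30 with at least 90% and -1.35 as a mean over cells.

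The share of genes past 2-fold depended on the UMI minimum: 19 of 417 genes were higher (4.56%) and 20 lower (4.796%) with at least 50 UMIs, and 155 of 2028 higher (7.64%) and 299 lower (14.7%) with at least 10. At 1.5-fold, 17.9% were higher and 19.4% lower. With fewer than 150 genes per cell, 51 of 697 genes were lower (7.32%). Malat1 (0.33) and the nuclear RNA list (0.30) turned higher in Lipo-Clo with fewer than 300 genes. Of 284 values for 37 named genes, 243 lay within the counting interval of the value given above, 34 moved and 7 reversed. In the 8 and 9 red cells with no UMI of 5 lists of other cell types, few UMIs were left: 1 of 9 genes (11.1%) was 2-fold higher and 0 lower, the red cell lists stood at 0.38 and mitochondrial genes at -2.04, and the ratios of the haem and iron list (-0.014), nuclear RNAs (0.69), immediate early and heat shock genes (0.012), Ftl1 (-0.72), Alas2 (0.15), Bpgm (0.28), Tent5c (0.012), Malat1 (0.50) and Fech (1.60) reversed, with wide intervals (-1.23 to 1.54 for Alas2). The cause of these changes was not tested.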

Other observations

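Several further transcripts also differed between the red cells of the 2 libraries. Ube2c, a ubiquitin conjugating enzyme of the anaphase-promoting complex, had a UMI in 31.2% of Lipo-Clo and 22.7% of Lipo-PBS red cells, against 10.26% and 10.01% of collagen-rich cells, with levels of 41.8 and 25.6 (log2 ratio 0.71, 0.47 to 0.94). It was also higher in Lipo-Clo in collagen-rich cells (0.80, 0.70 to 0.89). The list of 11 cell cycle genes summed to 28.6 and 15.9 (0.85, 0.55 to 1.14), with 4 of 4 genes compared higher in Lipo-Clo and 2 of them at least 2-fold, H2az1, a histone gene (1.20, 0.77 to 1.64), and Hmgb2, a chromatin protein, whose interval spanned 0 (1.02). This list was also higher in Lipo-Clo in globin-rich cells with at least 200 genes (1.23) and in collagen-rich cells (0.59). Its proliferation markers Mki67 (2 and 5 UMIs) and Top2a (0 and 3) were under the minimum of 20 UMIs. Pabpc1, the cytoplasmic poly(A) binding protein, stood at 34.8 and 53.2 (-0.61, -0.83 to -0.40). The list of 10 translation factors it belongs to had a log2 ratio of 0.05 (-0.04 to 0.13). Immediate early and heat shock genes together summed to 17.1 in Lipo-Clo and 26.2 in Lipo-PBS (-0.62, -0.93 to -0.32), with Fos at 3.93 and 6.78. These genes were also lower in Lipo-Clo as a sum in globin-rich cells with at least 200 genes (-0.91) and in collagen-rich cells (-0.27). Gphn, gephyrin, stood at 56.7 and 76.1 (-0.42, -0.60 to -0.25). Ube2c and Gphn were singled out after their values were seen.

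The 5 cells of Lipo-Clo with fewer than 200 genes that were not globin-rich had at most 0.93% globin. S100a9 supplied 34.2% of their UMIs, S100a8 10.5% and Retnlg 6.18%, and their median depth was 664 UMIs.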
